A study of Arabidopsis thaliana with 24 samples.

Results

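The class III peroxidases (PRX) are the plant peroxidases that are secreted, mostly into the cell wall. The 60 genes described here were chosen by their locus identifiers as members of this family, out of 23865 genes found in any of 5 tables of differential expression, by a rule that uses no measured value. At least 1 of the authors' deposited tables listed 59 of them, and PRX6 (AT1G24110) was listed in none. The PRX numbers follow the order of the family's 73 loci along the genome. For the 11 members with a numbered name in RefSeq the numbers were the same, although RefSeq also lists AtPRX1 for PRX2 and peroxidase 2 for PRX53.

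Messenger RNA was sequenced from whole seedlings of Arabidopsis thaliana, ecotype Col-0, in 24 libraries that form 8 groups of 3 biological replicates. The question named by the study's title is how HBI transcription factors, through reactive oxygen species, act on the nitrate response. Seedlings spent 7 days on 7 mM KNO3 and 2 days without nitrogen, and each treatment then lasted 3 h. The groups were the hbi-q mutant with 10 mM KNO3 and with mock treatment, the nlp7-1 mutant with 10 mM KNO3 and with mock treatment, and the wild type (WT) with 10 mM KNO3 plus 0.5 mM H2O2, with 10 mM KNO3 alone, with 0.5 mM H2O2 alone and with mock treatment. Which HBI genes are mutated in hbi-q, what kind of allele nlp7-1 is and how many seedlings made up a library are not stated in the labels. All groups therefore share the nitrogen starvation, and the mock groups are nitrogen-starved seedlings. The names of the deposited comparisons call the mock control KCL. They call the group with H2O2 alone KCL with H2O2 where it is set against KNO3 plus H2O2.

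Class III peroxidases use H2O2 to oxidise phenolic compounds, among them the monomers of lignin, and some of them can also produce reactive oxygen species. Through such reactions they stiffen or loosen cell walls, and single members are known for root hair growth, for the lignin of the Casparian strip (the barrier in the root endodermis) and of the stem, and for the oxidative burst of plant defence. Nitrate is a nutrient and a signal, NLP7 is a transcription factor that starts much of the early nitrate response, and the HBI proteins are basic helix-loop-helix transcription factors.

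Each of the authors' deposited tables sets 2 treatments within 1 genotype against each other and gives, per gene, a base mean, a log2 fold change, its standard error (SE) and an adjusted p from DESeq2. The base mean is the mean normalised read count over the libraries of the fit. A gene is called higher or lower here at an adjusted p below 0.05 and a change of at least 2-fold, the criterion in the study's design text. The tables hold no value per library, so the spread between replicates enters only through the SE. The table of H2O2 against mock lists 1810 genes, all of them past both thresholds, so a gene missing from it was not called. Responses to nitrate were compared between 2 tables by a two-sided normal test on the difference of the log2 fold changes, with Benjamini-Hochberg adjustment over all genes in both tables and no minimum size. Because each table stays within 1 genotype, none gives a mutant level against a WT level. NLP7 itself (AT4G24020) had a base mean of 446 in the authors' deposited table for nlp7-1 and of 1057 in those for hbi-q and WT. The base means of the hbi-q and WT nitrate tables are the same for every gene, so that they cover both genotypes, while those of the nlp7-1 table differ from them and are not on the same scale.

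The response to nitrate of 7 members, PRX27, PRX28, PRX45, PRX52, PRX53, PRX62 and PRX71, differed from that of WT in hbi-q, in nlp7-1 and in WT given H2O2. Scaled to the robust SD given with each comparison, PRX52, PRX62 and PRX71 were still called in all 3. The 3 differences share the WT nitrate and mock libraries, so these calls are not independent. How many of all genes were called in all 3 was not counted, so the 7 are not set against a background. The promoters of 6 of the 7 are shown because these genes moved together in these tests, each with a response below that of WT without H2O2. Each sequence is the 250 bases before the gene start in RefSeq's TAIR10.1, read in the direction of the gene: PRX27 at chr3:68666-68915 (minus strand), PRX28 at chr3:903412-903661 (minus), PRX45 at chr4:14762569-14762818 (plus), PRX52 at chr5:1580876-1581125 (minus), PRX62 at chr5:15849142-15849391 (minus) and PRX71 at chr5:25661008-25661257 (minus). Capitals mark TTGACC or TTGACT, the core letters bound by WRKY factors, and TGACGT, letters bound by basic leucine zipper factors, on either strand.
PRX27: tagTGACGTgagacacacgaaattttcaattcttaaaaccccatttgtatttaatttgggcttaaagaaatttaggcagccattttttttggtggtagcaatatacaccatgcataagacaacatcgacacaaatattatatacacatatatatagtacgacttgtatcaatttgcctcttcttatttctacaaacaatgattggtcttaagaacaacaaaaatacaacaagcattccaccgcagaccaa
PRX28: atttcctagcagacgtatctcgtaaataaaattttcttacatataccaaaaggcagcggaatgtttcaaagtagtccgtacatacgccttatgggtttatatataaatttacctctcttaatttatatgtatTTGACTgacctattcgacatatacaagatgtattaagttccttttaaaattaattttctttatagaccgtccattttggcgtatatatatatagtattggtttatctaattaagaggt
PRX45: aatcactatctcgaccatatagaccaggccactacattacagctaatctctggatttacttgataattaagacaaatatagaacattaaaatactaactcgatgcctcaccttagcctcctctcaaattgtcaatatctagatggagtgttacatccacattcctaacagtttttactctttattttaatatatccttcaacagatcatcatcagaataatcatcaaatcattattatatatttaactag
PRX52: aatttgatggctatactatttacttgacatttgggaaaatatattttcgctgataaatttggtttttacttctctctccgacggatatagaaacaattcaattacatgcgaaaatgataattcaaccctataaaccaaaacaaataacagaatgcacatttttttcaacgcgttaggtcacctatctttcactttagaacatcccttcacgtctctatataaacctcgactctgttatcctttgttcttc
PRX62: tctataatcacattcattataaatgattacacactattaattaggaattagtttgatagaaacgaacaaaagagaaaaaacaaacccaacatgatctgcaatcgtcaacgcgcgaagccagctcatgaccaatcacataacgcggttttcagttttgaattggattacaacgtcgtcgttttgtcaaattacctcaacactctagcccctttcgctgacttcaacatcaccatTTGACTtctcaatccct
PRX71: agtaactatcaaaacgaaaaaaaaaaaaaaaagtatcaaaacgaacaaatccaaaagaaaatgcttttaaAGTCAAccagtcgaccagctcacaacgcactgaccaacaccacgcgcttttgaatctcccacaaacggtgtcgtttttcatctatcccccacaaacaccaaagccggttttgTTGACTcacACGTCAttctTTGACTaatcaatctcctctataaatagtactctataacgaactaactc

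TTGACC or TTGACT stood in the promoters of PRX28, PRX62 and PRX71, with 3 matches in PRX71, and TGACGT in those of PRX27 and PRX71. Over all 60 members, 18 promoters (30%) held TTGACC or TTGACT, against 28.4% of 27443 promoters of the same length. Of these 60 windows, the one of PRX20 overlapped another gene. TGACGT was found in 6 of the 60 (10%), against 7.69% of all promoters. CACGTG, a palindrome bound by basic helix-loop-helix factors, was in 6.49% of all promoters and in 0 of the 60 windows, which says only that these letters are not in these 250 bases.

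**Figure D1:**
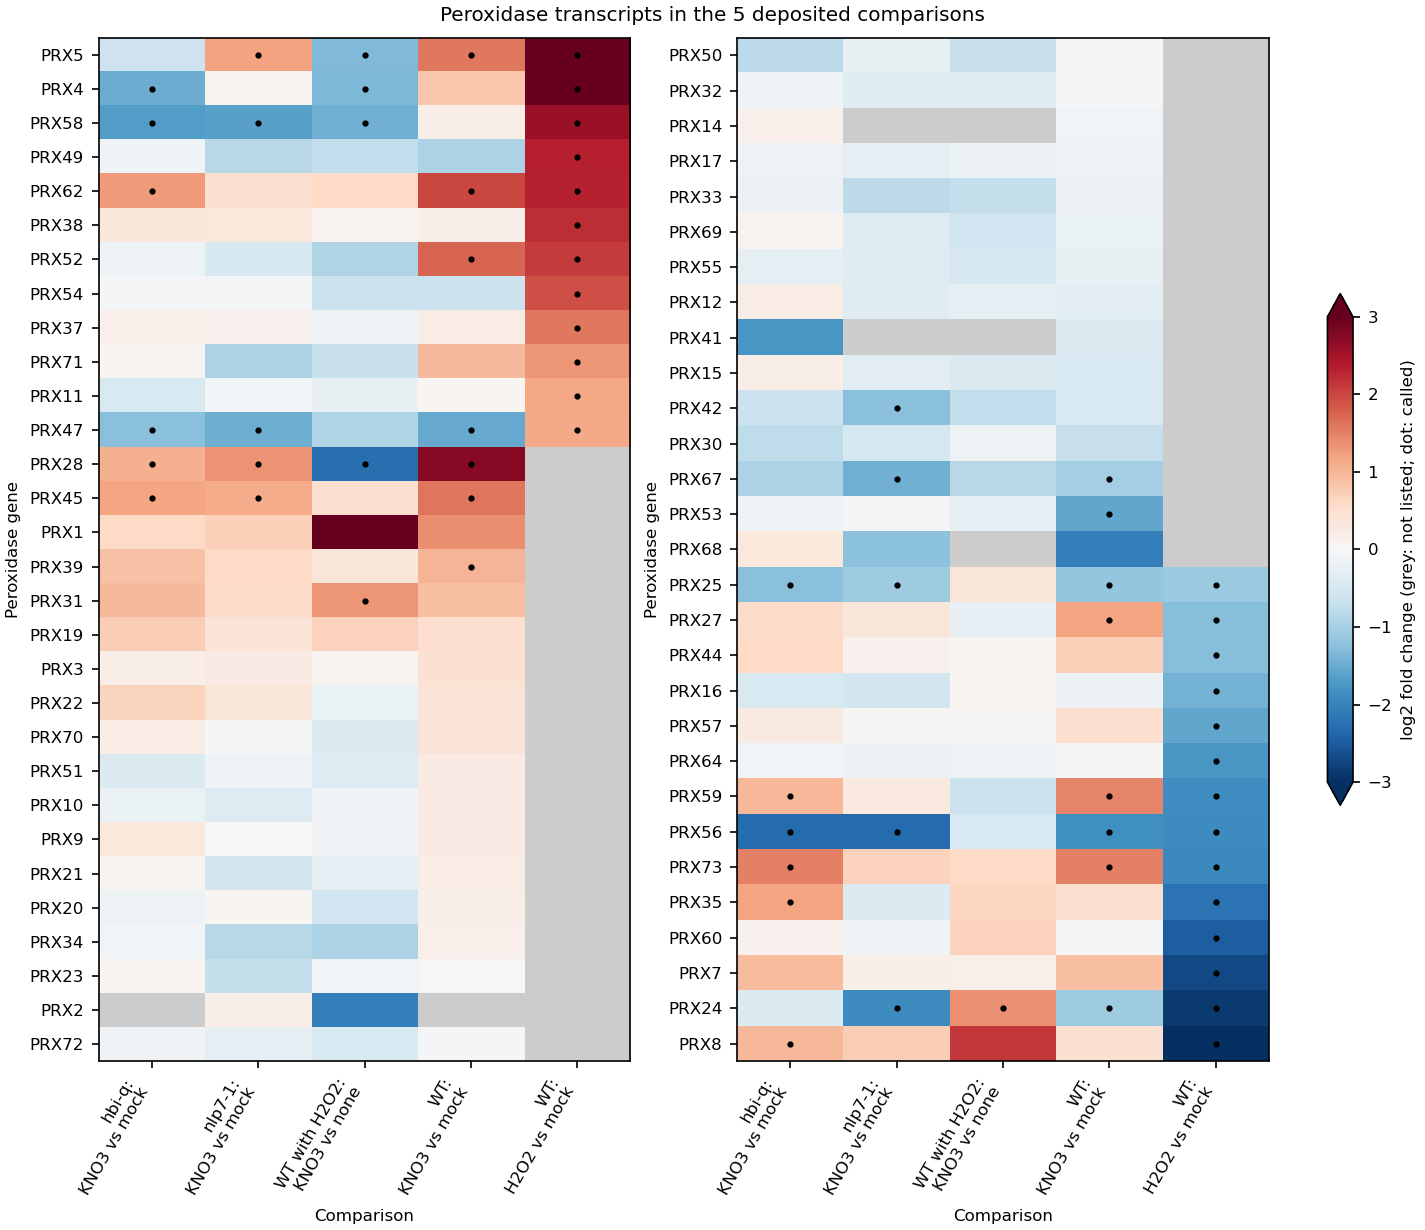
Log2 fold changes of 59 peroxidase genes (rows) in the authors' 5 deposited comparisons (columns), in order of the response to H2O2 and then of the WT response to nitrate. Colour gives the log2 fold change, limited to 3 in either direction, a black dot marks a call and grey a gene not listed. Red and blue cells with a dot are both present in every column, and in the H2O2 column 12 genes are red and 14 blue.

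PRX42 (AT4G21960, named PRXR1) was the most abundant peroxidase transcript. In the authors' deposited table for WT nitrate its base mean was 83616, which was 45.2% of the summed base mean of the 58 members listed. Per kilobase of exon the same deposited table gave 45717 for PRX42, 9173 for PRX23, 8230 for PRX32, 5826 for PRX27 and 5190.05 for PRX71. The median of the 58 members was 640 per kilobase. The base means of PRX1, PRX14, PRX41 and PRX68 were below 10 in that deposited table, so their fold changes have SEs of 0.82 to 1.87 on the log2 scale. All 60 members together held between 0.833% and 1.12% of the summed base mean in the authors' 4 deposited tables on nitrate.

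The family divided under H2O2. Of the 56 members listed in either WT table with H2O2, 12 (21.4%) rose and 14 (25%) fell in H2O2-treated WT seedlings relative to mock-treated ones. In the authors' deposited tables the same criterion called 4.98% of 22311 genes higher and 3.13% lower. The group levels below are means of 3 libraries recomputed from base mean and fold change, so that they carry no error of their own.

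PRX5 (AT1G14550) rose most, to 173 normalised counts in H2O2-treated seedlings, against 10.7 in mock-treated ones, a log2 fold change of 4.02 (SE 0.32) in the authors' deposited table. Its neighbour PRX4 (AT1G14540, PER4), a peroxidase of stem lignin, reached 601 with H2O2 against 75.8 with mock (2.99, SE 0.16, in the authors' deposited table). PRX58 (AT5G19880) followed, with 82.2 against 13.6 normalised counts (2.59, SE 0.33, in the authors' deposited table). These 3 were scarce in mock-treated seedlings.

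Members that were already abundant also rose. PRX71, which is known for lignin and for limiting growth under wall damage, had 15776 normalised counts with H2O2 against 6329 with mock (1.32, SE 0.092, in the authors' deposited table). PRX49 (AT4G36430) had 11291 with H2O2 against 2225 with mock (2.34, SE 0.096), and PRX37 (AT4G08770) 10236 against 3410.11 (1.59, SE 0.079), again by the authors' deposited table. The other 6 that rose had log2 fold changes of 2.31 (PRX62), 2.21 (PRX38), 2.10 (PRX52), 1.92 (PRX54), 1.17 (PRX11) and 1.13 (PRX47) in that deposited table. The DESeq2 adjusted p of these 12 genes ran from 3.27e-130 for PRX49 to 4.72e-14 for PRX58 in the authors' deposited table. Summed over the 12, the recomputed level was 49739.8 with H2O2 and 15541 with mock.

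PRX8 (AT1G34510) fell most, to 1.71 normalised counts with H2O2 against 39.5 with mock (-4.53, SE 0.73, in the authors' deposited table). PRX24 (AT2G39040) had 22.2 with H2O2 and 162 with mock (-2.87, SE 0.25), and PRX7 (AT1G30870) had 124 against 815 (-2.71, SE 0.12, both in the authors' deposited table). Of the 4 peroxidases of root hair growth, 3 fell and PRX1 was not listed, while PRX62, which acts in root hairs in the cold, was among the genes that rose. PRX60 (AT5G22410, RHS18) had 11.95 normalised counts with H2O2 against 66.1 with mock, PRX73 (AT5G67400, RHS19) 191 against 731, and PRX44 (AT4G26010) 444 against 1076, with log2 fold changes of -2.47, -1.93 and -1.28 in the authors' deposited table.

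PRX35 (-2.21), PRX56 (-1.88), PRX59 (-1.87), PRX64 (-1.75), PRX57 (-1.57), PRX16 (-1.42), PRX27 (-1.27) and PRX25 (-1.12) completed the list of lower genes in the authors' deposited table. PRX27 was the most abundant of these, at 2047 normalised counts with H2O2 against 4930.13 with mock. DESeq2's adjusted p for the 14 lower genes lay between 1.73e-102 for PRX7 and 2.21e-06 for PRX25 in the authors' deposited table. Their summed level was 5187 with H2O2 and 15143 with mock. Of the 26 genes called, 7 of those that rose and 5 of those that fell changed at least 4-fold. PRX7, PRX38, PRX44, PRX47, PRX64 and PRX73 overlap an antisense gene in RefSeq, as does PRX55, with the strand setting of these libraries not given in the sources used here.

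**Figure D2:**
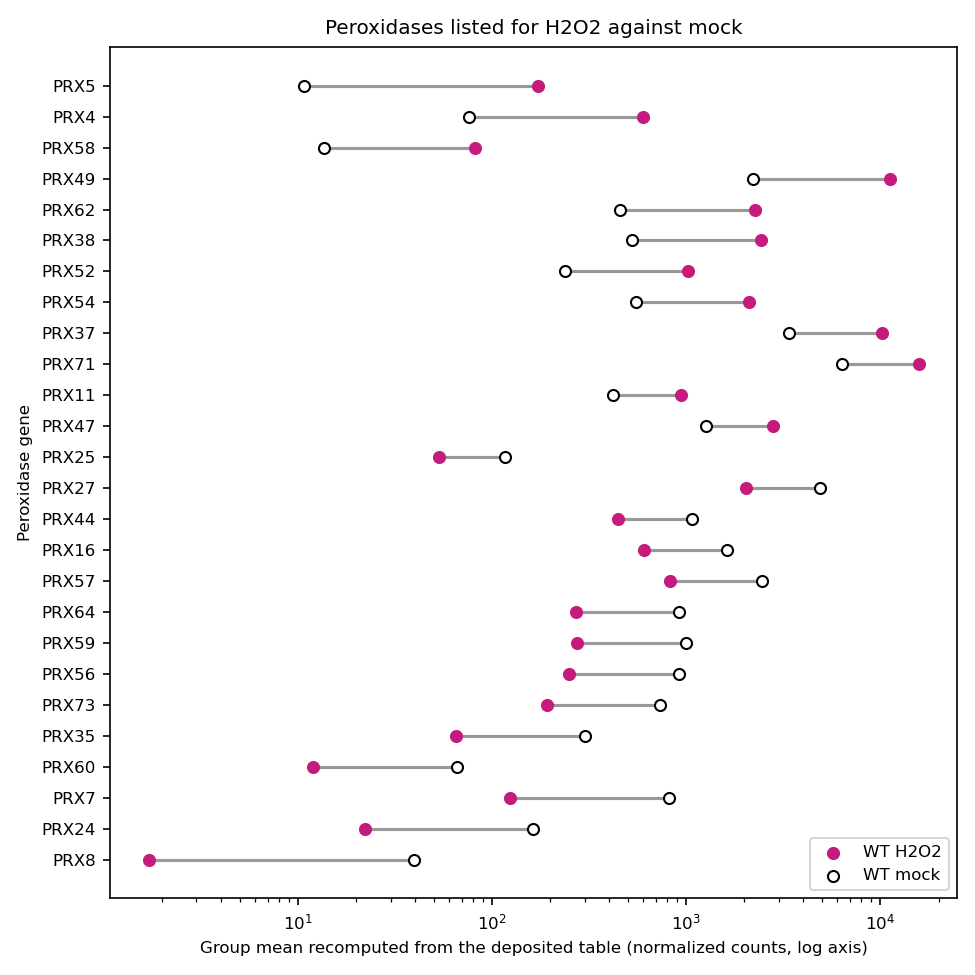
Group mean in normalised counts (horizontal log axis) of the 26 peroxidase genes listed for H2O2 against mock in WT, recomputed from the deposited table; filled circles are H2O2-treated and open circles mock-treated seedlings, and no error is known per group. The 12 genes at the top lie higher with H2O2 and the 14 below lie lower, from PRX5 (173 against 10.7) to PRX8 (1.71 against 39.5).

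Nitrate alone moved fewer members in WT. Of the 58 listed, 9 (15.5%) were higher and 6 (10.3%) lower in KNO3-treated than in mock-treated WT seedlings, where the authors' deposited table called 9.44% of 22954 genes higher and 5.51% lower. A further 20 members passed the adjusted p without reaching 2-fold, 14 of them above 0 and 6 below.

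PRX28 (AT3G03670) rose most, with a log2 fold change of 2.73 (SE 0.12) and a DESeq2 adjusted p of 4.67e-105 in the authors' deposited table. PRX62 (AT5G39580), a peroxidase of root hair growth at low temperature, had 1.99 (SE 0.099), and PRX52 (AT5G05340), which acts in stem lignin, 1.74 (SE 0.14) in the same deposited table. The other genes that rose in it were PRX45 (1.60, SE 0.091), PRX5 (1.59, SE 0.39), PRX73 (1.52, SE 0.12), PRX59 (1.46, SE 0.16), PRX27 (1.18, SE 0.096) and PRX39 (1.02, SE 0.085). PRX71 had 0.98 (SE 0.075) in the authors' deposited table, just short of 2-fold.

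PRX56 (AT5G15180) fell most, with a log2 fold change of -1.85 (SE 0.12) in the authors' deposited table. The other genes that fell in it were PRX53 (AT5G06720; -1.55, SE 0.16), PRX47 (AT4G33420; -1.51, SE 0.11), the lignin peroxidase PRX25 (AT2G41480; -1.16, SE 0.21), PRX24 (-1.06, SE 0.18) and PRX67 (-1.03, SE 0.11).

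The calls for nitrate and for H2O2 in WT rest on the same mock libraries, so they are set side by side without a test. PRX5, PRX52 and PRX62 were called higher in both of the authors' deposited tables, and PRX24, PRX25 and PRX56 lower in both. PRX27, PRX59 and PRX73 were higher with nitrate and lower with H2O2, and PRX47 was lower with nitrate and higher with H2O2.

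In hbi-q, 7 of 58 members (12.1%) were higher with KNO3 than with mock and 5 (8.62%) lower, where the authors' deposited table called 10.1% of all genes higher and 6.06% lower. PRX73 (1.52, SE 0.12), PRX62 (1.29, SE 0.10), PRX45 (1.19, SE 0.090), PRX35 (1.18, SE 0.14), PRX28 (1.06, SE 0.12), PRX59 (1.01, SE 0.17) and PRX8 (1.01, SE 0.29) rose in the hbi-q table that the authors deposited. PRX56 (-2.32, SE 0.12), PRX58 (-1.67, SE 0.45), PRX4 (-1.49, SE 0.18), PRX25 (-1.26, SE 0.23) and PRX47 (-1.25, SE 0.11) fell in the authors' deposited table.

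The difference between hbi-q and WT was called for 17 of 58 members (29.3%), 11 with a response below that of WT and 6 above. Among all 22954 genes 3.49% were called below and 2.13% above. Among called members PRX4 differed most, with a response of -1.49 in hbi-q against 0.82 in WT in the authors' deposited tables, a difference of -2.32 (SE 0.25, adjusted p = 4.33e-17 by the normal test). PRX5 had -0.63 in hbi-q against 1.59 in WT, and PRX52 -0.16 against 1.74, in the authors' deposited tables. PRX28 still rose in hbi-q, but by 1.06 against 2.73 in WT in the authors' deposited tables (difference -1.67, SE 0.17).

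Other members called below WT were PRX71, with 0.06 in hbi-q against 0.98 in WT, and the neighbours PRX50 and PRX51, with -0.80 and -0.44 in hbi-q against -0.06 and 0.26 in WT, all from the authors' deposited tables. PRX62, PRX27, PRX11 and PRX45 had smaller differences of -0.71, -0.61, -0.51 and -0.41. PRX53 was the called member furthest above WT, since its response was -0.12 in hbi-q against -1.55 in WT in the authors' deposited tables (difference 1.42, SE 0.24). PRX49 (0.83), PRX35 (0.70), PRX15 (0.66), PRX54 (0.59) and PRX12 (0.53) also lay above. Over all genes the test statistic had a robust SD of 1.30 in place of 1. Scaled to it, 9 differences below WT and 3 above were still called, without PRX11, PRX15, PRX35, PRX45 and PRX54.

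In nlp7-1, 3 of 57 members (5.26%) were higher and 7 (12.3%) lower with KNO3 than with mock, where the authors' deposited table called 9.03% of 22610 genes higher and 6.63% lower. The fits were less precise there, with a median SE over the members of 0.194 in nlp7-1 against 0.110 in WT in the authors' deposited tables. PRX28 (1.34, SE 0.18), PRX5 (1.20, SE 0.43) and PRX45 (1.12, SE 0.11) rose in the authors' deposited table for nlp7-1. PRX56 (-2.30, SE 0.15), PRX24 (-1.89, SE 0.24), PRX58 (-1.62, SE 0.41), PRX47 (-1.46, SE 0.19), PRX67 (-1.44, SE 0.18), PRX42 (-1.26, SE 0.21) and PRX25 (-1.06, SE 0.29) fell in it. PRX28 and PRX45 were thus higher, and PRX25, PRX47 and PRX56 lower, with nitrate in all 3 genotypes.

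The difference between nlp7-1 and WT was called for 19 of 56 members (33.9%), 18 below WT and 1 above, where 7.38% of 21790 genes were called below and 4.33% above. PRX52 differed most, at -0.48 in nlp7-1 against 1.74 in WT in the authors' deposited tables (difference -2.22, SE 0.25, adjusted p = 1.51e-15 by the normal test). PRX71 had -0.96 in nlp7-1 against 0.98 in WT, and PRX62 0.49 against 1.99, in the authors' deposited tables (differences -1.94, SE 0.23, and -1.50, SE 0.18). PRX28 (-1.39), PRX59 (-1.17) and PRX58 (-1.82) also differed by more than 2-fold. PRX53 was the 1 member called above WT, at -0.07 in nlp7-1 against -1.55 in WT in the authors' deposited tables (difference 1.48, SE 0.32).

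The other differences below WT lay between -0.49 for PRX45 and -0.98 for PRX34 and included PRX10, PRX21, PRX23, PRX24, PRX27, PRX33, PRX35, PRX42, PRX44 and PRX73. PRX35 was called in both mutants in opposite directions, with 1.18 in hbi-q and -0.41 in nlp7-1 against 0.48 in WT in the authors' deposited tables. The 2 mutant differences use the same WT libraries, so shared calls between them are not independent. The statistic had a robust SD of 1.88 over all genes, and after scaling to it PRX52, PRX62 and PRX71 were the members still called. All the other differences for nlp7-1 therefore depend on that scale.

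**Figure D3:**
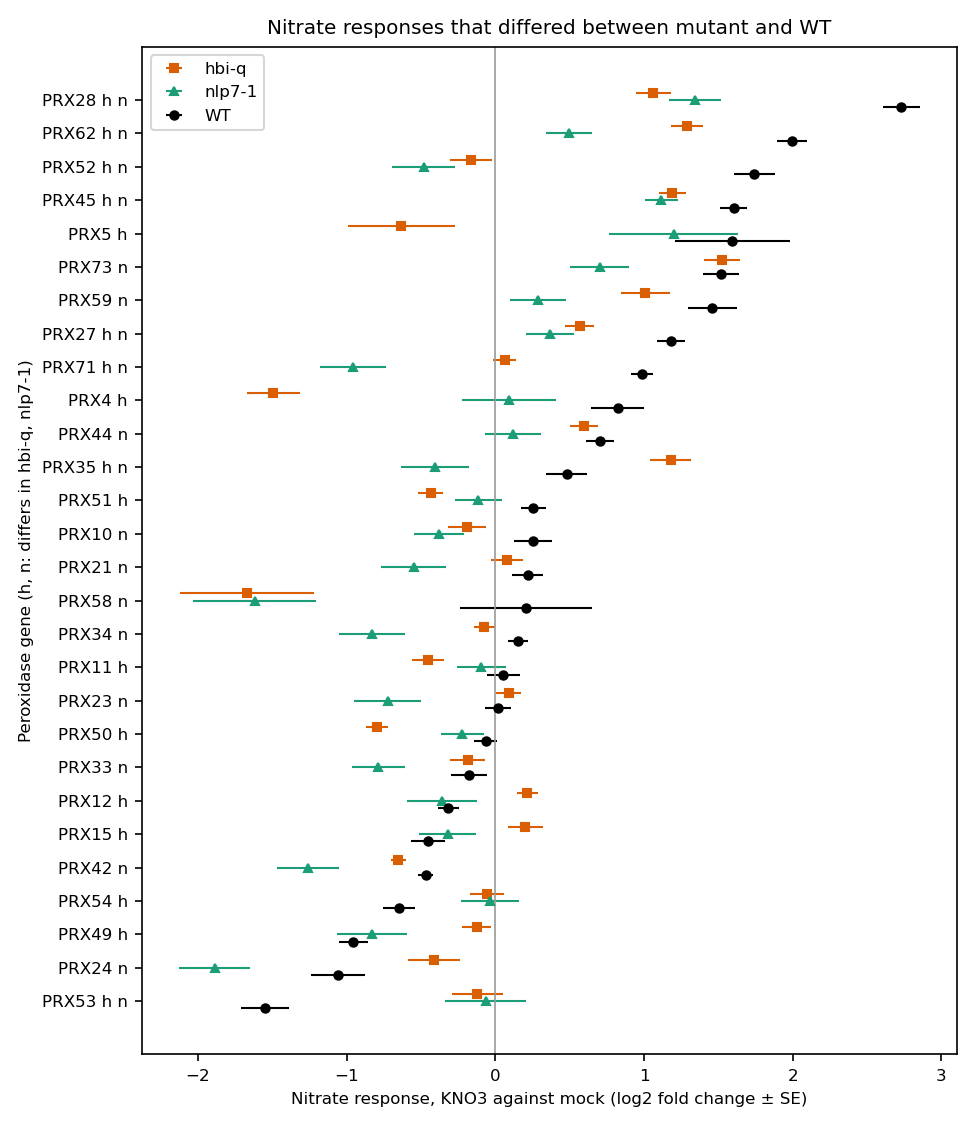
Response to KNO3 against mock (log2 fold change, bars are 1 SE, horizontal axis) in hbi-q (squares), nlp7-1 (triangles) and WT (circles) from the deposited tables, for the 28 peroxidase genes whose response differed from WT in at least 1 mutant; h and n after a name mark the mutant. PRX28, PRX62, PRX52 and PRX45 at the top lie lower in both mutants than in WT (1.74 in WT for PRX52), and PRX53 at the bottom lies near 0 in both mutants and at -1.55 in WT.

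With H2O2 present, nitrate raised 2 of 56 members (3.57%) and lowered 4 (7.14%) in WT, where the authors' deposited table called 6.54% of 22302 genes higher and 4.14% lower. A further 33 passed the adjusted p without reaching 2-fold, 27 of them below 0. PRX28 fell most, to 70.2 normalised counts with KNO3 plus H2O2 against 335 with H2O2 alone, a log2 fold change of -2.25 (SE 0.18, DESeq2 adjusted p = 7.48e-35) in the authors' deposited table. PRX58 had 28.8 against 78.3 (-1.44, SE 0.29), PRX4 227 against 572 (-1.34, SE 0.13) and PRX5 66.2 against 165 (-1.32, SE 0.20) in that deposited table. PRX24 rose, with 54.3 normalised counts with KNO3 plus H2O2 against 21.1 with H2O2 alone (1.36, SE 0.32), and so did PRX31 (AT3G28200), with 1450 against 582 (1.32, SE 0.086, both in the authors' deposited table).

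The members' summed level over 56 genes was 138480 with KNO3 plus H2O2 and 198100 with H2O2 alone. Without PRX42, which had 53257 and 89533 normalised counts, the sums were 85224 and 108566.

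The difference of the nitrate response with H2O2 from that without was called for 35 of 55 members (63.6%), 28 below and 7 above. Of all 22204 genes, 13.4% were called below and 11.4% above. PRX28 was the extreme, at -2.25 with H2O2 against 2.73 without in the authors' deposited tables (difference -4.98, SE 0.22, adjusted p = 6.95e-112 by the normal test). PRX5 had -1.32 with H2O2 against 1.59 without, so that PRX5 and PRX28 were called lower with H2O2 and higher without in the authors' deposited tables. PRX24 was the reverse, at 1.36 with H2O2 against -1.06 without in the authors' deposited tables (difference 2.42, SE 0.37).

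PRX52 had -0.89 with H2O2 against 1.74 without, PRX4 -1.34 against 0.82, PRX59 -0.64 against 1.46 and PRX71 -0.66 against 0.98 in the authors' deposited tables. PRX27, PRX62, PRX45 and PRX34 had differences of -1.43, -1.39, -1.13 and -1.09. PRX58 had -1.65, with an SE of 0.53. Above, PRX25 (1.52), PRX56 (1.38) and PRX53 (1.26) had responses nearer 0 or above 0 with H2O2, as the plot of the responses with and without H2O2 shows. PRX47 (0.61), PRX30 (0.53) and PRX31 (0.42) completed the 7 above. The remaining differences below 0 lay between -0.91 for PRX73 and -0.28 for PRX42. Over all genes the robust SD of the statistic was 1.97. Scaled to it, PRX24 and PRX56 above and PRX4, PRX5, PRX27, PRX28, PRX34, PRX45, PRX52, PRX59, PRX62 and PRX71 below were still called.

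**Figure D4:**
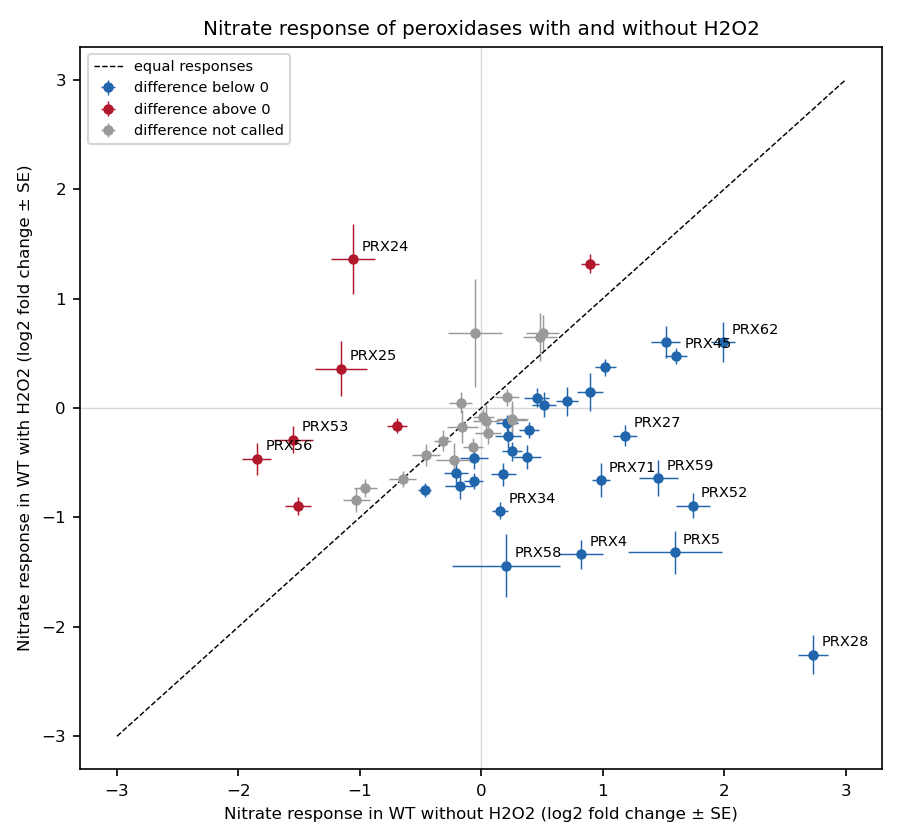
Response to nitrate in WT with H2O2 (vertical axis) against that without (horizontal axis), as deposited log2 fold changes with bars of 1 SE, for the 53 peroxidase genes whose difference had an SE below 1. Blue points (difference below 0) lie under the dashed line of equal responses and red points over it, with PRX28 at -2.25 and 2.73 and PRX24 at 1.36 and -1.06; names mark differences of at least 2-fold.

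The 12 genes that rose with H2O2 and the 14 that fell can also be followed into nitrate. The authors' deposited log2 fold change with H2O2, plus that of KNO3 with H2O2 and minus that of KNO3 alone, gives the H2O2 effect in seedlings that also had KNO3. This value was above 0 for all but 2 of the 12, with a median of 1.03, the exceptions being PRX52 (-0.53) and PRX71 (-0.33). It was below 0 for 13 of the 14, with a median of -1.98 and with PRX25 (0.39) as the exception. These sums are given without an SE, and no share over all genes is set beside them. Of the 12, 10 had a negative response to nitrate in the authors' deposited table with H2O2, as did 4 of the 14. Values above 0 were found there for 18 of the 56 members listed and for 11223 of all 22302 genes. That table and the H2O2 table share the H2O2-treated libraries, so these counts carry no test.

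Among the peroxidases that act in the growth of root hairs, with nitrate, PRX73 rose in hbi-q (1.52) and WT (1.52), PRX44 had 0.60 in hbi-q, 0.12 in nlp7-1 and 0.71 in WT, and PRX60 lay between -0.13 and 0.14 in the 3 genotypes, all by the authors' deposited tables. PRX73 and PRX44 responded below WT in nlp7-1, with differences of -0.82 (SE 0.23) and -0.59 (SE 0.21). Neither was called after the robust scaling, and PRX44 was not called at an adjusted p below 0.01 (adjusted p = 0.0489 by the normal test). PRX1 had base means below 10 in the authors' deposited tables, and its largest value, 3.31 with an SE of 1.94, was not called. Of 7 other root hair genes, 4 fell with H2O2 in the authors' deposited table. These were the transcription factor RSL4 (-1.58), the expansins EXPA7 (-2.49) and EXPA18 (-2.42) and the wall gene SHV2 (-2.36). EXPA7 and EXPA18 rose with nitrate in hbi-q (1.05 and 1.04) and WT (1.19 and 1.07), in the authors' deposited tables. RHD6 rose with nitrate in nlp7-1 (1.07) in the authors' deposited table. The nitrate response of EXPA18 was called below WT in nlp7-1 (difference -0.70). With H2O2 against without, EXPA7 (-0.87) and EXPA18 (-1.04) were called below and SHV2 (0.65) above. Of PRX62 and PRX69, which act in root hairs in the cold, only PRX62 was called with nitrate in hbi-q and WT. PRX69 (AT5G64100) was not listed with H2O2 and had 0.11 in hbi-q, -0.38 in nlp7-1 and -0.21 in WT with nitrate in the authors' deposited tables.

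Among the Casparian strip peroxidases, PRX64 (AT5G42180) fell with H2O2 and PRX39 (AT4G11290) rose with nitrate in WT. PRX3, PRX9 and PRX72 were called in none of the 5 tables, with WT nitrate values of 0.46, 0.25 and -0.06 in the authors' deposited table. Among the partners of these peroxidases, the scaffold proteins CASP4 (-1.29) and CASP5 (-1.16) fell with H2O2, and CASP5 also fell with nitrate in hbi-q (-3.04), nlp7-1 (-4.03) and WT (-2.89), in the authors' deposited tables. PRX39 and PRX57 are held down in the root tip by the transcription factor UPBEAT1 (UPB1). PRX57 (AT5G17820) fell with H2O2 (-1.57) and had 0.51 with nitrate in WT, while UPB1 fell with nitrate in nlp7-1 (-1.14, SE 0.25) and had -0.76 in hbi-q and -0.82 in WT, by the authors' deposited tables.

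Of the stem lignin peroxidases, PRX4, PRX52 and PRX71 rose and PRX25 fell with H2O2, PRX17 had values between -0.30 and -0.15 in the 4 deposited nitrate tables of the authors, and PRX2 was below a base mean of 10. The lignin laccases LAC4, LAC11 and LAC17 were called in none of the authors' deposited tables, and DESeq2's unadjusted p was below 0.05 for 1 of the 3 with nitrate in hbi-q, 2 in nlp7-1, 1 in WT with H2O2 and 0 in WT. With H2O2 against without, the nitrate response of LAC4 (IRX12) was called above (difference 0.37, SE 0.12). None of the 3 was called between a mutant and WT. PRX33 (AT3G49110, PRXCA) and PRX34 (AT3G49120, PRXCB), which make part of the oxidative burst, were not called with nitrate alone. PRX34 had -0.83 (SE 0.22) in nlp7-1 against 0.15 (SE 0.068) in WT, and PRX33 -0.79 against -0.18, in the authors' deposited tables. Their coding sequences are 90.4% identical, and that of PRX32, which was called in no table, is 84.2% identical to that of PRX34.

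Of the 10 NADPH oxidases RBOHA to RBOHJ, which supply reactive oxygen species in the cell wall, 8 were listed in each nitrate table. RBOHA (-1.01) and AT1G19230 (-1.14) fell with nitrate in hbi-q, and RBOHB (-1.08) and AT4G25090 (-1.16) fell with H2O2 in WT, in the authors' deposited tables. RBOHA also had -0.68 with nitrate in WT, short of 2-fold, and its difference between hbi-q and WT was not called (-0.33). That of AT1G19230 was called below WT (-0.61). For the nitrate response with H2O2 against without, 2 of the 8 were called above and 3 below. Over all genes these shares were 11.4% and 13.4%. With nitrate in nlp7-1 and in WT 0 of the 8 were called, although DESeq2's unadjusted p was below 0.05 for 3 in nlp7-1 and 7 in WT. Over all genes that p was below 0.05 for 14109 of 22954 in hbi-q, 11188 of 22610 in nlp7-1, 12715 of 22302 in WT with H2O2 and 14111 of 22954 in WT. Among the 13 family genes outside the 60, PRX61 rose with nitrate in nlp7-1 (1.49) and fell with H2O2 (-1.44), and PRX26 fell with H2O2 (-1.20), in the authors' deposited tables.

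Peroxidase genes often stand side by side, and 22 members form pairs or trios of neighbours. PRX58 and PRX59 lie 1598 bases apart on chromosome 5, and their coding sequences are 56.0% identical. With H2O2, PRX58 rose (2.59) and PRX59 fell (-1.87), and with nitrate in hbi-q PRX58 fell (-1.67) and PRX59 rose (1.01), in the authors' deposited tables. This was the 1 pair with opposite calls in any table. PRX4 and PRX5 (72.3% identical) and PRX37 and PRX38 (93.8%) rose together with H2O2. Of PRX53 and PRX54 (80.8%), PRX54 rose with H2O2 and PRX53 was not listed, so its H2O2 value is not known. With nitrate in WT the authors' deposited table gave -1.55 for PRX53 and -0.65 for PRX54. The 2 genes were not tested against each other.

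PRX50 and PRX51 (92.4% identical) had differences of -0.73 and -0.69 between hbi-q and WT. PRX22 and PRX23 (90.6%) had 0.37 and -0.72 with nitrate in nlp7-1 in the authors' deposited table, and PRX23 was called below WT there. PRX69, PRX70 and PRX71 form a trio in which PRX71 was called with H2O2 and the other members were not listed. PRX67 fell with nitrate in nlp7-1 and WT, and its scarce neighbour PRX68 had -1.24 (SE 1.01) and -2.05 (SE 1.16) in the authors' deposited tables. PRX14, next to PRX15 (91.7%), had a base mean below 10. The coding sequences of PRX1 and PRX2 are 100% identical, so their reads cannot be assigned with certainty, and counts of the other close pairs share this doubt. Over all 1770 pairs of members the median identity was 51.8%.

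The 26 members that were listed but called in none of the 5 tables were PRX1, PRX2, PRX3, PRX9, PRX10, PRX12, PRX14, PRX15, PRX17, PRX19, PRX20, PRX21, PRX22, PRX23, PRX30, PRX32, PRX33, PRX34, PRX41, PRX50, PRX51, PRX55, PRX68, PRX69, PRX70 and PRX72. PRX19 had positive values in the 4 nitrate tables, from 0.38 in nlp7-1 to 0.75 in hbi-q, and PRX30 negative ones, from -0.76 in hbi-q to -0.16 in WT with H2O2, in the authors' deposited tables.

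The seedlings hold both roots and shoots, and all 7 root markers and all 7 shoot photosynthesis markers were listed in the 4 nitrate tables. In a whole seedling, fewer cells of a type and less RNA per cell cannot be told apart. Of the shoot markers 3 of 7 rose with nitrate in hbi-q (median log2 fold change 0.93), 0 of 7 in nlp7-1 (0.34), 0 of 7 in WT with H2O2 (-0.08) and 5 of 7 in WT (1.08), in the authors' deposited tables. DESeq2's unadjusted p was below 0.05 for 1 of the 7 in nlp7-1 and 4 in WT with H2O2. The medians of all genes lay between -0.007 and 0.005 in these tables. The difference of the nitrate response with H2O2 from that without was below 0 and called for 7 of 7 shoot markers (median -1.16). Between nlp7-1 and WT it was called below for 4 of 7 shoot markers (median of the 7 -0.74), and between hbi-q and WT for CAB2 (-1.09). The shoot markers CAB2 (1.31) and RBCS3B (1.03) rose with H2O2 in the authors' deposited table. Of the root markers, the aquaporins TIP2;2 (-2.12) and TIP2;3 (-1.93) fell with H2O2 and the others were not listed, in the authors' deposited table. With nitrate, 0 of 7 root markers were called in hbi-q (median 0.08), nlp7-1 (-0.41) and WT with H2O2 (0.22), in the authors' deposited tables. DESeq2's unadjusted p was below 0.05 for 3, 6 and 4 of them, respectively. In WT, TIP2;2 rose with nitrate (1.12) and the median of the 7 was 0.14, in the authors' deposited table. The nitrate response of TIP2;2 and TIP2;3 was called below WT in hbi-q (differences -1.03 and -0.997) and in nlp7-1 (-1.68 and -1.29). With H2O2 against without, TIP2;3 was called below (-1.69), and SCR and SHR above. The markers that were called moved in the same comparisons as the peroxidases, and their part in those results was not tested.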

How the data were processed

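The 24 libraries were grouped from the labels, with 3 biological replicates in each of 8 groups. Per the labels' protocols and the series' design text, libraries were sequenced on the BGISEQ-500 platform, reads were mapped with HISAT and Bowtie2 (TAIR10, per the submitters' processing notes), counted with htseq-count and tested with DESeq2. Versions, depths of the libraries and their strand settings: not given in the sources used here. Deposited tables give, per the file headers, a base mean (a normalised signal), a log2 fold change with its standard error, a Wald statistic (a score), and p-values raw and adjusted. Unit types were checked against the values.

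From these deposited values, calls, list counts, differences of log2 fold changes, group levels and base means per kilobase of RefSeq exon were computed with Python 3.11.15, pandas 2.3.3, numpy 2.4.6 and scipy 1.17.1. Group levels were recomputed where the 2 tables behave as fits of 2 groups: the H2O2 level from both differed by a constant 0.0708 (log2), with 0.0698 to 0.0716 as 5th and 95th percentiles over 1075 genes. The WT and hbi-q tables had the same base mean for all 22954 genes. Which libraries entered each fit is not stated. Gene starts, coding sequences and promoters came from RefSeq's TAIR10.1 annotation.

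Members called in a comparison were all named where they were 20 or fewer, otherwise the rule took the 12 highest and 12 lowest (the remaining called members are named as well), with role lists, neighbours and the 5 highest base means. The rule for members uses locus identifiers alone, but the choice of this family, the lists and the tests were made with earlier results of these data known. Alternatives were an adjusted p below 0.01, no fold minimum, a base mean of at least 10, a 4-fold minimum for H2O2, a 2-fold minimum for differences and a robust scaling of the difference test.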

Additional observations from a re-analysis of the deposited data

Results flagged for a closer look

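Peroxidase genes were singled out for a closer look where their response to nitrate differed between 2 groups by the normal test on the difference of log2 fold changes. Values in parentheses are these differences on the log2 scale, the first-named group minus WT without H2O2.

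Between hbi-q and WT, the differences below 0 were those of PRX4 (-2.32), PRX5 (-2.23), PRX52 (-1.90), PRX28 (-1.67), PRX71 (-0.92), PRX50 (-0.73), PRX62 (-0.71), PRX51 (-0.69), PRX27 (-0.61), PRX11 (-0.51) and PRX45 (-0.41). Those above 0 were of PRX12 (0.53), PRX54 (0.59), PRX15 (0.66), PRX35 (0.70), PRX49 (0.83) and PRX53 (1.42).

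Between nlp7-1 and WT, the differences below 0 were those of PRX52 (-2.22), PRX71 (-1.94), PRX58 (-1.82), PRX62 (-1.50), PRX28 (-1.39), PRX59 (-1.17), PRX34 (-0.98), PRX35 (-0.89), PRX24 (-0.83), PRX73 (-0.82), PRX27 (-0.81), PRX42 (-0.79), PRX21 (-0.77), PRX23 (-0.74), PRX10 (-0.63), PRX33 (-0.61), PRX44 (-0.59) and PRX45 (-0.49). Those above 0 were of PRX53 (1.48).

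Between WT with H2O2 and WT without, the differences below 0 were those of PRX28 (-4.98), PRX5 (-2.91), PRX52 (-2.64), PRX4 (-2.16), PRX59 (-2.10), PRX58 (-1.65), PRX71 (-1.64), PRX27 (-1.43), PRX62 (-1.39), PRX45 (-1.13), PRX34 (-1.09), PRX73 (-0.91), PRX70 (-0.82), PRX20 (-0.79), PRX7 (-0.75), PRX51 (-0.65), PRX39 (-0.65), PRX44 (-0.64), PRX50 (-0.61), PRX22 (-0.60), PRX33 (-0.53), PRX57 (-0.48), PRX21 (-0.48), PRX72 (-0.40), PRX69 (-0.38), PRX3 (-0.36), PRX37 (-0.35) and PRX42 (-0.28). Those above 0 were of PRX31 (0.42), PRX30 (0.53), PRX47 (0.61), PRX53 (1.26), PRX56 (1.38), PRX25 (1.52) and PRX24 (2.42).

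The nitrate responses of 3 members were called in opposite directions with H2O2 and without. In the authors' deposited tables PRX28 had -2.25 with H2O2 against 2.73 without. PRX5 had -1.32 against 1.59 and PRX24 1.36 against -1.06 in them. Markers of photosynthetic tissue differed in the same comparison, with 7 of 7 below 0, and their part in the differences was not tested.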

How the results depend on the processing

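No paired analysis was possible because the tables hold no value per library, and for the same reason another tool or normalization and leaving out each replicate were not run. With no fold minimum the nitrate calls were 18 higher and 13 lower in hbi-q, 8 and 16 in nlp7-1, 8 and 31 in WT with H2O2, and 23 and 12 in WT. At 4-fold the H2O2 calls were 7 higher and 5 lower. With a 2-fold minimum the differences called were 1 above and 4 below for hbi-q, 1 above (PRX53) and 6 below for nlp7-1, and 4 above and 11 below for WT with H2O2. At an adjusted p below 0.01, 9 remained below for nlp7-1, and with base means of at least 10, 2 were above. Under robust scaling the counts above were 3 for hbi-q, 0 for nlp7-1 and 2 for WT with H2O2, and those below were 3 for nlp7-1 and 10 for WT with H2O2. Over all genes that scaling left 528 of 1288 calls for hbi-q, 64 of 2552 for nlp7-1 and 857 of 5509 for WT with H2O2. These alternatives use the same log2 fold changes, so no direction could reverse. The nlp7-1 responses have the largest standard errors, genes with base means below 10 are poorly measured, and the table of H2O2 against mock shows nothing of genes outside it.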
